A study of Arabidopsis thaliana with 6 samples.

Results

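The transcriptomes of shoot-forming root explants of Arabidopsis thaliana that carry ARR1 behind the 35S promoter (Pro35SARR1) were compared with those of wild-type (WT) explants across all measured genes. The comparison takes 4 of the 6 RNA libraries of the study, 2 labelled WT and 2 labelled Pro35SARR1, and 18083 of 26726 genes had enough counts to be tested. The remaining 2 libraries are labelled arr1, a single mutant of the same gene, and served here to estimate the spread between libraries. Before harvest, explants of every genotype formed callus on CIM for 5 days and were then moved to SIM, on which shoots are induced, for 7 days in continuous light at 22 °C. SIM held the auxin IAA at 0.15 mg/L and, as cytokinin, 2-isopentenyl adenine at 1 mg/L. High ARR1 was therefore compared with normal ARR1 in tissue that was exposed to cytokinin in both genotypes. The 35S promoter is active in most cell types, so the transgene is not limited to the cells in which ARR1 is normally expressed. The labels do not say how many transgenic lines were used or whether the 2 libraries of a genotype came from separate cultures. The p-values therefore rest on how far these libraries differ from each other, which may be technical.

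Cytokinin is perceived by membrane receptor kinases, and the signal passes through phosphotransfer proteins to response regulators in the nucleus. Type-B response regulators such as ARR1 are transcription factors that bind DNA and switch on cytokinin-induced genes when phosphorylated. Type-A response regulators lack that DNA-binding part, are induced by cytokinin and dampen the signal, as do the cytokinin oxidases that degrade the hormone. In tissue culture, type-B regulators act upstream of WUS, the gene that sets up the organizing centre of a new shoot meristem.

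ARR1 itself (AT3G16857, chr3:5755821-5759443) was at 61.3 and 59.8 CPM in WT and 1725 and 1909 CPM in Pro35SARR1 (log2 fold change 4.91, SE 0.10, adjusted p = 0.000138), where CPM are library-size-scaled counts. The libraries of the 2 genotypes lay far apart, so the label Pro35SARR1 matched the level of its gene. Gene positions here and below are those of the deposited table. Reads from the transgene and from the native gene cannot be told apart in these values. In the libraries labelled arr1 the gene was at 61.2 and 58.6 CPM, a level that overlapped the WT range. The other tested type-B regulators were not called: ARR2, ARR10, ARR11, ARR12 and ARR14 had log2 fold changes of 0.04, −0.27, −0.32, −0.06 and 0.11. For each of these 5 genes the WT and Pro35SARR1 libraries overlapped.

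Of the 18083 genes tested, 214 were called higher (1.18%) and 161 lower (0.890%) in Pro35SARR1, together 2.07%, at an adjusted p under 0.05 in edgeR's quasi-likelihood test, in which replicate number entered as a block. The changes upward were larger. Among the called genes 153 were at least 2-fold higher and 21 at least 2-fold lower, and 75 were at least 4-fold higher against 3 at least 4-fold lower. For 4 of the higher and 2 of the lower genes one genotype held no counts, so their fitted fold is no measured size. The median log2 fold change was 1.56 over the genes called higher, −0.75 over the genes called lower and −0.0026 over all genes tested. The libraries did not overlap between the genotypes for 347 of the 375 called genes and for 37.2% of all genes tested. Both replicate numbers moved the same way for all called genes but 2, ATMIN7 and SDG2, each of which had counts in a single one of the 4 libraries.

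The number of calls rested on the block and on each Pro35SARR1 library. Without the block 16 genes were called higher (0.0885%) and 0 lower (0%). Of the 72 genes named by rule ARR1, IND, RNS1, CEL3, CWINV1, CYP71A12, PAD3, BAHD1, AT4G22050, AT2G39980, AT2G43480, AGP24, AAT1 and PMAT2 were called without the block, and the others were not. With the block kept, leaving out Pro35SARR1 replicate 1 left 11 genes called higher and 0 lower, and leaving out Pro35SARR1 replicate 2 left 6 and 0. Without WT replicate 1 the counts were 116 higher and 27 lower, and without WT replicate 2 they were 42 and 7. DESeq2, another count test, with the same block called 281 genes higher (1.26%) and 243 lower (1.09%). At an unadjusted p under 0.05, edgeR with the block had 1475 genes higher and 1747 lower.

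**Figure D1:**
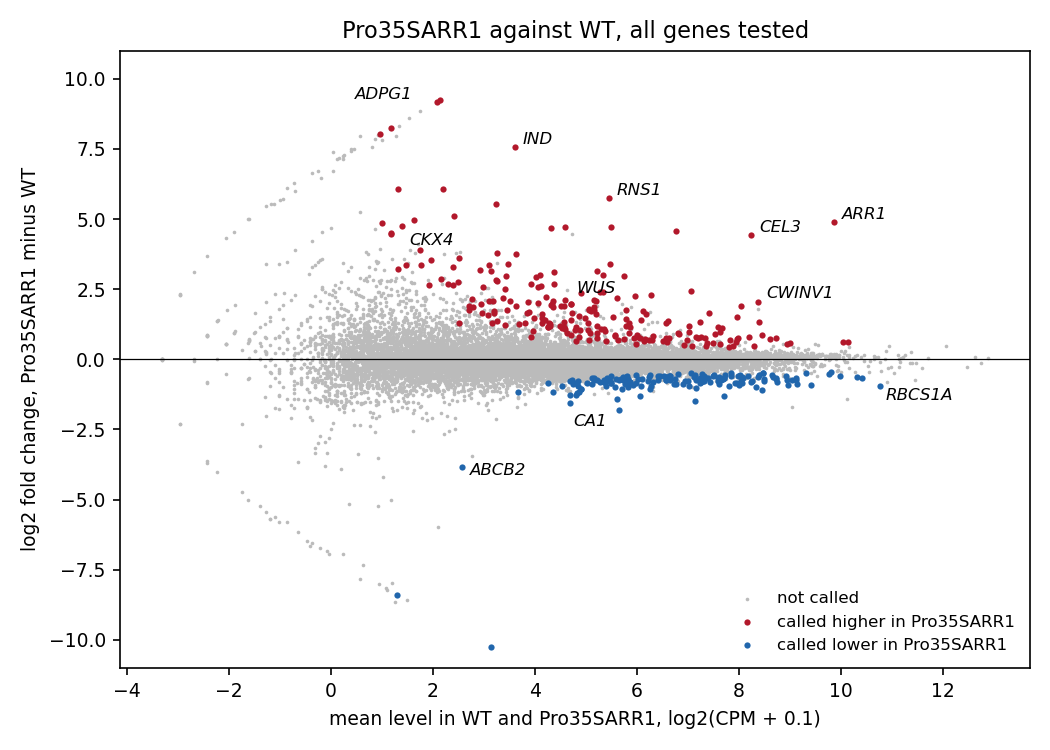
Log2 fold change of each tested gene in Pro35SARR1 against WT (vertical axis) over its mean level in the 4 libraries, as log2(CPM + 0.1) (horizontal axis). Red points are the 214 genes called higher, blue points the 161 called lower and grey points the genes not called; the red points reach further from 0 than nearly all blue points, and single genes are named.

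**Figure D2:**
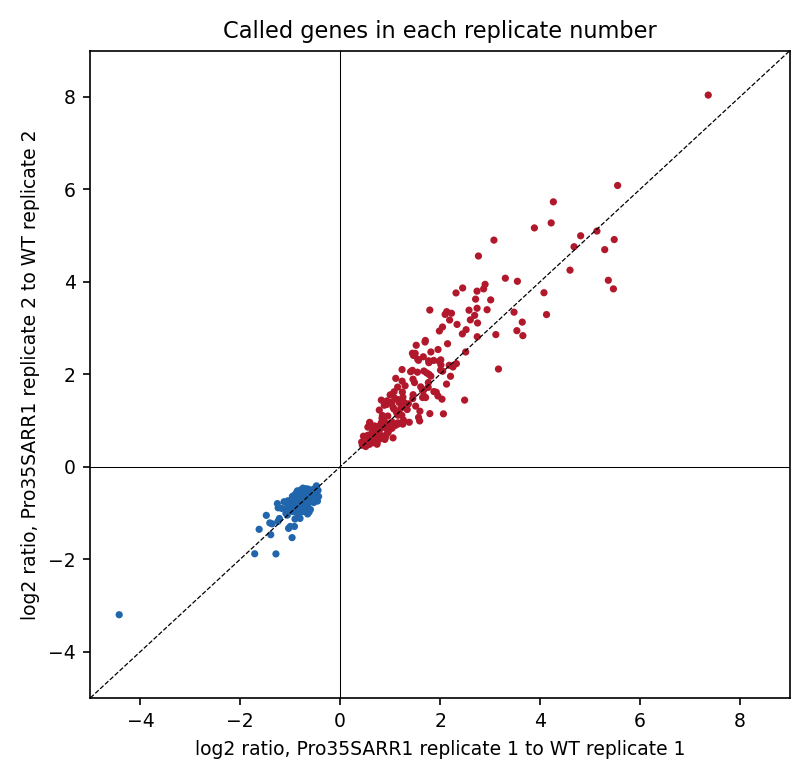
Log2 ratio of Pro35SARR1 to WT in replicate number 1 (horizontal axis) and in replicate number 2 (vertical axis) for the 365 of 375 called genes with counts in all 4 libraries, red where called higher and blue where called lower, with a dashed line where both ratios are equal. For 297 of them the 2 ratios lie within 0.5 of each other on the log2 scale.

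Among the type-A response regulators, the fast feedback inhibitors of cytokinin signalling, 2 of 10 tested members rose and 0 fell, against 1.18% of all genes called higher. ARR16 (AT2G40670, chr2:16969754-16971234) was at 35.2 and 17.2 CPM in WT and 95.8 and 73.0 CPM in Pro35SARR1 (log2 fold change 1.75, SE 0.169, adjusted p = 0.0253). Both Pro35SARR1 libraries lay above both WT libraries. ARR17 was at 0.113 and 0 CPM in WT and 5.58 and 3.80 CPM in Pro35SARR1 (adjusted p = 0.0498). The 2 WT libraries held 1 count between them and the 2 Pro35SARR1 libraries 83, a ratio of 83.1 with a 95% counting interval from 14.5 to 3322. That interval covers counting error only, and the call was kept in 8 of the 15 alternatives in which the gene was tested. It ended with no filter on low counts (adjusted p = 0.0511), after division by the count step (adjusted p = 0.0517), without the block (adjusted p = 0.178) and without any 1 of the WT or Pro35SARR1 libraries (adjusted p from 0.106 to 0.333). The other 8 members were not called. ARR5 was at 145 and 158 CPM in WT and 202 and 196 CPM in Pro35SARR1 (log2 fold change 0.39, adjusted p = 0.0947). ARR15 was at 4.06 and 10.6 CPM in WT and 11.7 and 22.9 CPM in Pro35SARR1 (log2 fold change 1.27, adjusted p = 0.130). The Pro35SARR1 libraries lay above the WT libraries for both genes. ARR3, ARR4, ARR6, ARR7 and ARR8 had log2 fold changes of 0.55, 0.17, 0.50, 0.39 and 0.29, and ARR9 had the one negative value of the list (−0.58, adjusted p = 0.153). The median log2 fold change of the 10 was 0.45, against −0.0026 over all genes tested.

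The sequences before the starts of ARR16 and ARR17 are shown because both genes rose and the DNA core recognised by type-B regulators, AGATT or AGATC, is known. CKX4 and WUS, described next, and RBCS1A, which had the highest CPM among the named lower genes, are shown beside them. These 5 genes were picked after their values were seen. Each line gives the 250 bases before the RefSeq start on TAIR10.1, 5′ to 3′ on the gene's strand, and capitals mark AGATT or AGATC on either strand (AATCT and GATCT on the reverse). The windows are chr2:16969423-16969672 (plus strand), chr3:20905014-20905263 (plus), chr4:14565933-14566182 (plus), chr2:7810812-7811061 (minus) and chr1:25049668-25049917 (minus).
ARR16: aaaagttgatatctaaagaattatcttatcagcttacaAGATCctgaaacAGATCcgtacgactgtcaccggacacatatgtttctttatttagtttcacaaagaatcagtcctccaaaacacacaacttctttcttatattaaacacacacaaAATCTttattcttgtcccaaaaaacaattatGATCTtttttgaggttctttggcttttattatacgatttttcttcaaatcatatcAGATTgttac
ARR17: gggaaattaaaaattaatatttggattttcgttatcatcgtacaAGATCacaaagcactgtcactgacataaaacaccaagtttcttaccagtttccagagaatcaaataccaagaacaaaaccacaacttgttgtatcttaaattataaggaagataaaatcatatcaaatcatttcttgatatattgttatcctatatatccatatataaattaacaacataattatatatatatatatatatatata
CKX4: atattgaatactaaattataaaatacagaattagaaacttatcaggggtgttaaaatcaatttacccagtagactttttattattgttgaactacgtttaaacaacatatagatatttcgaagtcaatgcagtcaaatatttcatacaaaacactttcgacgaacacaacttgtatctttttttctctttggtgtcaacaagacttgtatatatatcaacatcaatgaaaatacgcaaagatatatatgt
WUS: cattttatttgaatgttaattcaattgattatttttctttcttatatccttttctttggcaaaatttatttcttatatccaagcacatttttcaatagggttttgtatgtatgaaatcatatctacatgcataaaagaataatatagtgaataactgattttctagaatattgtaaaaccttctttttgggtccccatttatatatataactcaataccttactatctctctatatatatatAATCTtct
RBCS1A: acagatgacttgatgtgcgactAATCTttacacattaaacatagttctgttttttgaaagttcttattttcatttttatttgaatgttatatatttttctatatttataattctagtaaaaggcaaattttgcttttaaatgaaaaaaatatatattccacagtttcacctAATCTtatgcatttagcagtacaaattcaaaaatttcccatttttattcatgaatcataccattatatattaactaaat
ARR16 held 5 matches, 2 of AGATT and 3 of AGATC, RBCS1A held 2, ARR17 and WUS held 1 each and CKX4 held 0. A match is a run of letters and not a measured binding site.

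Over the whole sets, windows from 250 bases before to 50 bases after the start were searched on both strands. AGATT was in 68.9% of the 17854 windows of tested genes, in 74.3% of the 210 of genes called higher and in 72.0% of the 161 of genes called lower. AGATC was in 30.3% of all windows, in 38.1% of those of the higher genes and in 21.1% of those of the lower genes. Longer forms were rarer: AAGATTTT, which contains AGATT, was in 6.77%, 9.05% and 7.45% of the windows, and AAGATCTT, which contains AGATC, in 0.935%, 0.952% and 0.621%. In the 250 bases before the start alone, AGATC was in 25.4% of all windows, 28.1% of the higher and 14.9% of the lower ones. The higher set then lay nearer to all tested genes. These shares are descriptions and were not tested.

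The cytokinin oxidases, which degrade the hormone, rose in part. In the list of cytokinin breakdown and conjugation 3 of 9 tested members rose and 0 fell, against 1.18% of all genes called higher, and all 3 were oxidases. CKX4 was at 2.37 and 1.12 CPM in WT and 15.8 and 15.6 CPM in Pro35SARR1 (log2 fold change 3.16, SE 0.417, adjusted p = 0.0335). CKX3 was at 5.75 and 14.7 CPM in WT and 16.4 and 36.5 CPM in Pro35SARR1 (log2 fold change 1.39, SE 0.213, adjusted p = 0.0432). CKX5 was at 39.4 and 36.2 CPM in WT and 61.2 and 60.6 CPM in Pro35SARR1 (log2 fold change 0.69, SE 0.0982, adjusted p = 0.0373). The Pro35SARR1 libraries lay above the WT libraries for each, with the widest gap for CKX4. On the synthesis side, with 12 tested members, 1 rose and 1 fell, against 1.18% of all genes called higher and 0.890% called lower. CYP735A1, which hydroxylates the side chain to make trans-zeatin forms, was at 2.25 and 0.899 CPM in WT and 16.8 and 13.9 CPM in Pro35SARR1 (log2 fold change 3.35, SE 0.359, adjusted p = 0.0297). IPT3, an isopentenyltransferase of the first step of synthesis, was at 51.0 and 46.9 CPM in WT and 33.1 and 23.8 CPM in Pro35SARR1 (log2 fold change −0.80, SE 0.122, adjusted p = 0.0430). The libraries of the 2 genotypes did not overlap for either gene, and the 2 genes moved in opposite directions. None of 8 tested receptors and phosphotransfer genes was called. Of 14 other genes known to be cytokinin-induced, 1 rose, against 1.18% of all genes called higher. It was the glutaredoxin gene GRXS13, at 59.3 and 50.4 CPM in WT and 94.0 and 78.0 CPM in Pro35SARR1 (log2 fold change 0.65, SE 0.0848, adjusted p = 0.0335). The median of those 14 was −0.20, and 11 of them had a negative value.

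**Figure D3:**
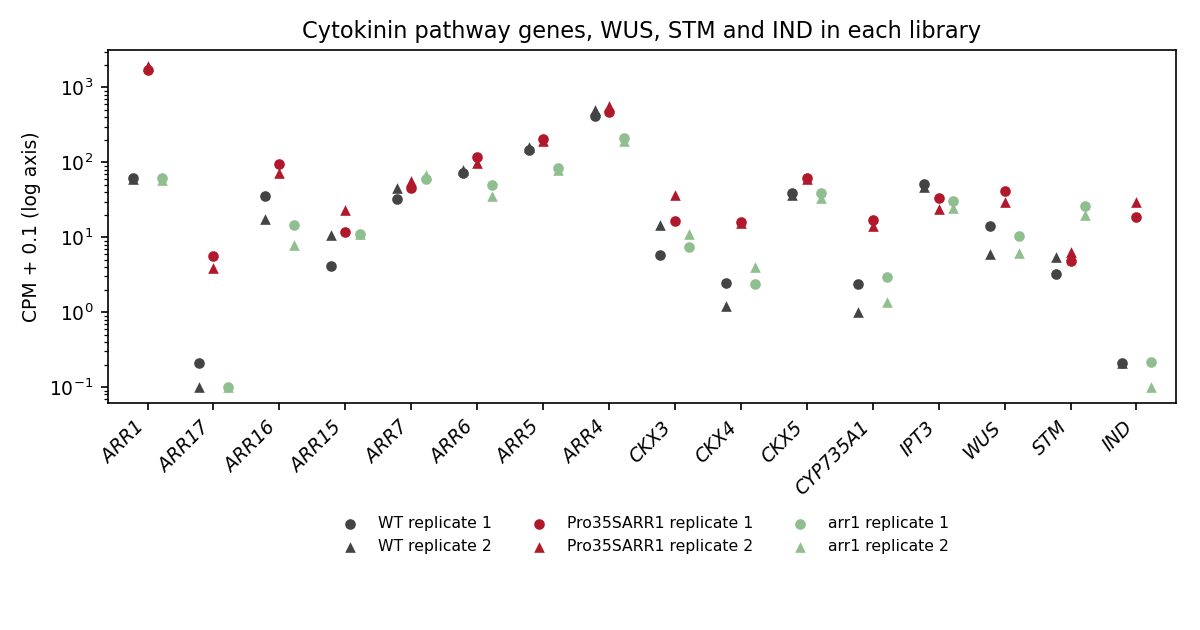
Level of 16 genes in each of the 6 libraries, as CPM + 0.1 on a log axis, with WT in dark grey, Pro35SARR1 in red and the libraries labelled arr1 in green; circles are replicate 1 and triangles replicate 2. The red points of ARR1, ARR17, ARR16, CKX4, CYP735A1, WUS and IND lie above all dark grey points of the same gene. Those of IPT3 lie below the dark grey points. For STM the ranges of the red and dark grey points overlap.

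The organizer gene of the shoot meristem rose in the Pro35SARR1 explants. WUS (AT2G17950, chr2:7808871-7810795) was at 13.9 and 5.96 CPM in WT and 41.1 and 29.4 CPM in Pro35SARR1 (log2 fold change 1.90, SE 0.205, adjusted p = 0.0297). Both Pro35SARR1 libraries lay above both WT libraries, and replicate 1 was the higher in each genotype. WUS was the one member called of 20 tested genes of shoot meristem and regeneration, against 1.18% of all genes called higher. STM, a homeobox gene that keeps meristem cells undifferentiated, was at 3.16 and 5.4 CPM in WT and 4.67 and 6.26 CPM in Pro35SARR1 (log2 fold change 0.36, SE 0.337, adjusted p = 0.635), with overlapping libraries. The list's median was −0.01. PLT7, an AINTEGUMENTA-like gene named after its values were seen, was at 5.53 and 3.6 CPM in WT and 0 and 0 CPM in Pro35SARR1 and was not called (adjusted p = 0.149). No member was called among 11 genes of leaf polarity, 9 of root meristem and callus or 20 of the cell cycle.

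The strongest rise among called genes with counts in every WT and Pro35SARR1 library was that of IND, whose bHLH factor is known for forming the opening zone of the fruit. IND (AT4G00120, chr4:41665-43197) was at 0.113 and 0.112 CPM in WT and 18.7 and 29.5 CPM in Pro35SARR1 (adjusted p = 0.00751). The 2 WT libraries held 2 counts in all and the 2 Pro35SARR1 libraries 428, a ratio of 214 with a 95% counting interval from 59.0 to 1776. ADPG1, a polygalacturonase gene of pod opening and organ shedding, was at 0 and 0 CPM in WT and 8.65 and 7.82 CPM in Pro35SARR1 (adjusted p = 0.0410). With no counts in WT it was at least 24.4-fold higher against a floor of 3 counts per library. Of the other tested relatives of IND, HEC1 was at 20.7 and 13.3 CPM in WT and 20.3 and 9.16 CPM in Pro35SARR1 (adjusted p = 0.546), and its libraries overlapped. SPT and ALC, partners of such factors in the fruit, were not called either.

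Beside ARR1, 4 named genes kept their call in each of the 16 alternative settings tried: CEL3, CWINV1, RNS1 and AT2G43480. CEL3 (AT1G71380, chr1:26899784-26901789), an endoglucanase (cellulase) gene, was at 21.3 and 33.6 CPM in WT and 517 and 641 CPM in Pro35SARR1 (log2 fold change 4.42, SE 0.148, adjusted p = 0.000818). CWINV1 (AT3G13790, chr3:4532911-4535867), a cell wall invertase that splits sucrose outside the cell, was at 136 and 123 CPM in WT and 548 and 524 CPM in Pro35SARR1 (log2 fold change 2.05, SE 0.0865, adjusted p = 0.00156). RNS1 (AT2G02990, chr2:873506-874811), a secreted ribonuclease known from senescence, wounding and phosphate shortage, was at 2.03 and 1.12 CPM in WT and 95.4 and 76.3 CPM in Pro35SARR1 (log2 fold change 5.76, SE 0.172, adjusted p = 0.000635). The genotypes lay far apart for each of the 3. AT2G43480, a peroxidase gene, was at 6.65 and 8.66 CPM in WT and 74.2 and 87.9 CPM in Pro35SARR1 (log2 fold change 3.41, SE 0.122, adjusted p = 0.000886), with libraries that did not overlap. CEL3 was the one call among 13 tested cellulases and expansins, against 1.18% of all genes called higher. Among 11 tested invertases and sugar carriers CWINV1 rose and SUC1 fell, against 1.18% of all genes called higher and 0.890% called lower. SUC1, a sucrose-proton symporter gene, was at 1400.2 and 1039 CPM in WT and 875 and 747 CPM in Pro35SARR1 (log2 fold change −0.58, SE 0.0875, adjusted p = 0.0415). SUC5, a neighbouring carrier gene of the same family, also fell, at 90.1 and 60.7 CPM in WT and 43.1 and 31.8 CPM in Pro35SARR1 (log2 fold change −1.0, SE 0.0957, adjusted p = 0.0253). The Pro35SARR1 libraries lay below the WT libraries for both carriers.

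Few hormone genes outside the cytokinin pathway were called. In the ethylene list 2 of 12 tested members rose, against 1.18% of all genes called higher. The counts in the lists that follow stand against the same share. Both ethylene genes were for ACC synthase, the enzyme that makes the ethylene precursor. ACS2 was at 5.64 and 7.53 CPM in WT and 27.0 and 33.6 CPM in Pro35SARR1 (log2 fold change 2.2, SE 0.166, adjusted p = 0.0121). ACS7 was at 27.6 and 18.5 CPM in WT and 53.2 and 35.3 CPM in Pro35SARR1 (log2 fold change 0.94, SE 0.134, adjusted p = 0.0378). Neither gene overlapped between the genotypes. Of 18 tested Aux/IAA genes, which repress auxin responses, 1 rose: IAA17, at 248 and 338 CPM in WT and 414 and 565 CPM in Pro35SARR1 (log2 fold change 0.74, SE 0.109, adjusted p = 0.0400). CYP707A1, which inactivates abscisic acid, was the 1 call among 10 genes of abscisic acid and cold, at 15.6 and 20.6 CPM in WT and 65.2 and 45.5 CPM in Pro35SARR1 (log2 fold change 1.62, SE 0.242, adjusted p = 0.0409). No call was made among 20 tested genes of auxin synthesis, transport and conjugation, 8 gibberellin oxidases or 14 jasmonate genes.

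Of 14 tested genes of the salicylate branch of defence 4 rose and 0 fell, against 1.18% of all genes called higher. All 14 had a positive log2 fold change, with a median of 1.42, and the other 10 were not called. ICS1, the isochorismate synthase that supplies most salicylate, was at 18.2 and 10.5 CPM in WT and 40.3 and 34.5 CPM in Pro35SARR1 (log2 fold change 1.41, SE 0.190, adjusted p = 0.0347). CBP60g and SARD1 encode related factors that switch on ICS1. CBP60g was at 32.4 and 27.4 CPM in WT and 76.7 and 84.0 CPM in Pro35SARR1 (log2 fold change 1.42, SE 0.177, adjusted p = 0.0320). SARD1 was at 17.6 and 3.48 CPM in WT and 61.0 and 36.5 CPM in Pro35SARR1 (log2 fold change 2.37, SE 0.378, adjusted p = 0.0461). The glucanase gene PR2, a pathogenesis-related marker, was at 2.03 and 5.4 CPM in WT and 13.7 and 46.6 CPM in Pro35SARR1 (log2 fold change 3.0, SE 0.305, adjusted p = 0.0295). None of these 4 genes overlapped between genotypes. Replicate 2 was the higher library of PR2 in both genotypes and the lower one of SARD1. PR1 was at 0 and 0 CPM in WT and 1.25 and 3.13 CPM in Pro35SARR1 and PBS3 at 0 and 4.72 CPM in WT and 60.7 and 40.3 CPM in Pro35SARR1, and neither was called (adjusted p = 0.0757 and adjusted p = 0.0681). Without the block no member of the list was called, and without either Pro35SARR1 library none was.

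Of 13 tested genes of the tryptophan-derived defence pathway 3 rose and 0 fell, against 1.18% of all genes called higher, and the median was 0.84. The log2 fold change was positive for 9 of the 13 and negative for 4. CYP71A12 (AT2G30750, chr2:13099336-13101413), which converts indole acetaldoxime, was at 1.92 and 1.46 CPM in WT and 22.4 and 23.6 CPM in Pro35SARR1 (log2 fold change 3.76, SE 0.241, adjusted p = 0.00751). PAD3 (AT3G26830, chr3:9887948-9889705), the enzyme of the last step to the phytoalexin camalexin, was at 14.4 and 11.1 CPM in WT and 64.1 and 70.4 CPM in Pro35SARR1 (log2 fold change 2.40, SE 0.163, adjusted p = 0.00866). CYP81F2, which hydroxylates indole glucosinolates, was at 8.91 and 8.43 CPM in WT and 29.1 and 23.8 CPM in Pro35SARR1 (log2 fold change 1.61, SE 0.179, adjusted p = 0.0297). For each of the 3 genes the libraries of a genotype were close and the genotypes well apart. CYP71A13, a close neighbour of CYP71A12 that may share reads with it, was at 0.338 and 0.337 CPM in WT and 5.01 and 6.93 CPM in Pro35SARR1 and was not called (adjusted p = 0.0917).

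A wider list of indole glucosinolate modification and breakdown, written after the called genes had been read, held 8 called members of 14, all higher, against 1.18% of all genes. Of the 14 members 11 had a positive and 3 a negative log2 fold change. Beside CYP81F2 the called members were CYP81F3 (1.03), the methyltransferase genes IGMT2 (1.67), IGMT3 (1.08) and IGMT4 (2.05), the nitrilase genes NIT2 (1.34) and NIT3 (0.77), and NSP3, each with its log2 fold change. NSP3, a nitrile specifier gene whose product directs glucosinolate breakdown to nitriles, was at 5.75 and 2.81 CPM in WT and 44.2 and 29.6 CPM in Pro35SARR1 (log2 fold change 3.13, SE 0.192, adjusted p = 0.00751). The IGMT genes stand in tandem and the nitrilases are close copies, so reads may be shared among them. In a list of aliphatic glucosinolate synthesis, also written afterwards, all 12 members had a negative value and 2 were called lower, against 0.890% of all genes. These were MAM1 (−0.81) and CYP83A1 (−0.85), both with overlapping libraries, and replicate 2 was the higher in each genotype. Families taken by product name afterwards gave 5 of 16 chitinases, 5 of 35 glutathione S-transferases, 4 of 57 WRKY factors and 4 of 60 NAC factors called higher and 0 lower, against 1.18% and 0.890% of all genes. The 45 tested class III peroxidases were split, with 5 higher and 3 lower. As the lists and families of this paragraph were made after the calls were known, their counts are descriptions alone.

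In a list of genes for the root triterpenes thalianol and marneral 4 of 5 tested members rose and 0 fell, against 1.18% of all genes called higher. The 4 belong to the thalianol pathway, and MRO, of the marneral pathway, was not called (log2 fold change −0.06). BAHD1, an acyltransferase gene, was at 34.1 and 38.0 CPM in WT and 109 and 109.7 CPM in Pro35SARR1 (log2 fold change 1.6, SE 0.0946, adjusted p = 0.00751). THAD was at 174 and 175 CPM in WT and 287 and 270.1 CPM in Pro35SARR1 and THAH at 204 and 175 CPM in WT and 277 and 241 CPM in Pro35SARR1, 2 cytochrome P450 genes with log2 fold changes of 0.68 and 0.45. THAS1, the thalianol synthase, was at 113 and 81.3 CPM in WT and 178 and 131 CPM in Pro35SARR1 (log2 fold change 0.67, SE 0.105, adjusted p = 0.0441). No Pro35SARR1 library of these 4 genes reached down to the WT range, and BAHD1 changed most. BAHD1 was the one of them called without the block.

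Most tested genes of photosynthesis fell. Of 35 tested members 23 fell and 0 rose, against 0.890% of all genes called lower, and all 35 had a negative log2 fold change, with a median of −0.74. RBCS1A (AT1G67090, chr1:25048158-25049424), a small subunit of the carbon-fixing enzyme Rubisco, was at 1925 and 2685 CPM in WT and 1005 and 1369 CPM in Pro35SARR1 (log2 fold change −0.96, SE 0.0775, adjusted p = 0.0170). PSBO2, of the oxygen-evolving complex, was at 279 and 314 CPM in WT and 135 and 173 CPM in Pro35SARR1 (log2 fold change −0.95, SE 0.0834, adjusted p = 0.0214). Both genes stood in Pro35SARR1 clearly below their WT level. LHCA2, a light-harvesting protein of photosystem I, was at 315 and 349 CPM in WT and 157 and 198 CPM in Pro35SARR1 (log2 fold change −0.91, SE 0.0963, adjusted p = 0.0297). RCA, the Rubisco activase, was at 568 and 885 CPM in WT and 298 and 503 CPM in Pro35SARR1 (log2 fold change −0.87, SE 0.0778, adjusted p = 0.0214). The WT libraries lay above the Pro35SARR1 libraries for all 4, and in both genotypes replicate 2 was the higher. The summed level of the 35 genes was 13942 and 17813 FPKM in WT and 7681 and 10921 FPKM in Pro35SARR1, where FPKM are fragments scaled to transcript length and library size. In these bulk samples fewer green cells and less RNA per cell cannot be told apart. The number of members called lower was 31 in DESeq2, 14 in limma on log2(FPKM + 0.1) and 0 without the block. It was 4 without WT replicate 1, and 0 without WT replicate 2 or without either Pro35SARR1 library. The median kept its sign in every one of the 16 alternatives.

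Further chloroplast pathways were read from 4 lists written after the called genes had been read, which therefore give descriptions alone. Those of the Calvin cycle and of chlorophyll synthesis share 3 tested members each with the photosynthesis list, and the others share 0. Of 20 genes of the Calvin cycle and carbonic anhydrase 15 were called lower, against 0.890% of all genes, with a median of −0.87. The carbonic anhydrase genes had the largest changes among the called members. CA1 (AT3G01500, chr3:194724-198019) was at 73.4 and 81.6 CPM in WT and 22.4 and 22.1 CPM in Pro35SARR1 (log2 fold change −1.79, SE 0.253, adjusted p = 0.0371). CA2 was at 254 and 161 CPM in WT and 82.5 and 63.0 CPM in Pro35SARR1 (log2 fold change −1.49, SE 0.0958, adjusted p = 0.00751). The small-subunit genes RBCS1B and RBCS3B, neighbouring near-identical copies that may share reads, had log2 fold changes of −1.43 and −1.30. Aldolase FBA2 was at 468 and 622 CPM in WT and 250.1 and 371 CPM in Pro35SARR1 (log2 fold change −0.82, SE 0.0813, adjusted p = 0.0272). The dehydrogenase gene GAPB was at 272 and 364 CPM in WT and 143 and 219 CPM in Pro35SARR1 (log2 fold change −0.83, SE 0.0858, adjusted p = 0.0297). All of these genes were lower in each Pro35SARR1 library than in each WT library. For CA1, CA2, RBCS1B and RBCS3B this was a condition of the rule that named them.

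Photorespiration, the recovery of the side product of Rubisco, had 10 of 18 members called lower, against 0.890% of all genes. The list counts that follow stand against the same share. AGT, the peroxisomal alanine:glyoxylate aminotransferase, was at 94.6 and 94.6 CPM in WT and 35.6 and 40.8 CPM in Pro35SARR1 (log2 fold change −1.32, SE 0.173, adjusted p = 0.0335). GOX1, a glycolate oxidase gene beside its copy GOX2, was at 90.1 and 117 CPM in WT and 43.2 and 56.8 CPM in Pro35SARR1 (log2 fold change −1.05, SE 0.10, adjusted p = 0.0250). GOX2 had a log2 fold change of −0.66. PMDH2, a malate dehydrogenase of the peroxisome, was at 55.7 and 83.2 CPM in WT and 23.6 and 44.9 CPM in Pro35SARR1 (log2 fold change −1.05, SE 0.123, adjusted p = 0.0304). AGT, GOX1 and PMDH2 did not overlap between the genotypes, which was a condition of the rule that named them. Of 12 genes of electron transport and the chloroplast ATP synthase 9 were called lower, and of 17 of chlorophyll synthesis 4 were, HEMA1, GUN5, CRD1 and CHLP, with log2 fold changes from −0.69 to −0.56. None of the members of these 4 lists was called higher. FER1, an iron-storing ferritin of plastids, was at 276 and 276 CPM in WT and 199 and 169.6 CPM in Pro35SARR1 (log2 fold change −0.58, SE 0.0950, adjusted p = 0.0477). It was the 1 call among 3 tested members of a list of iron-related genes.

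**Figure D4:**
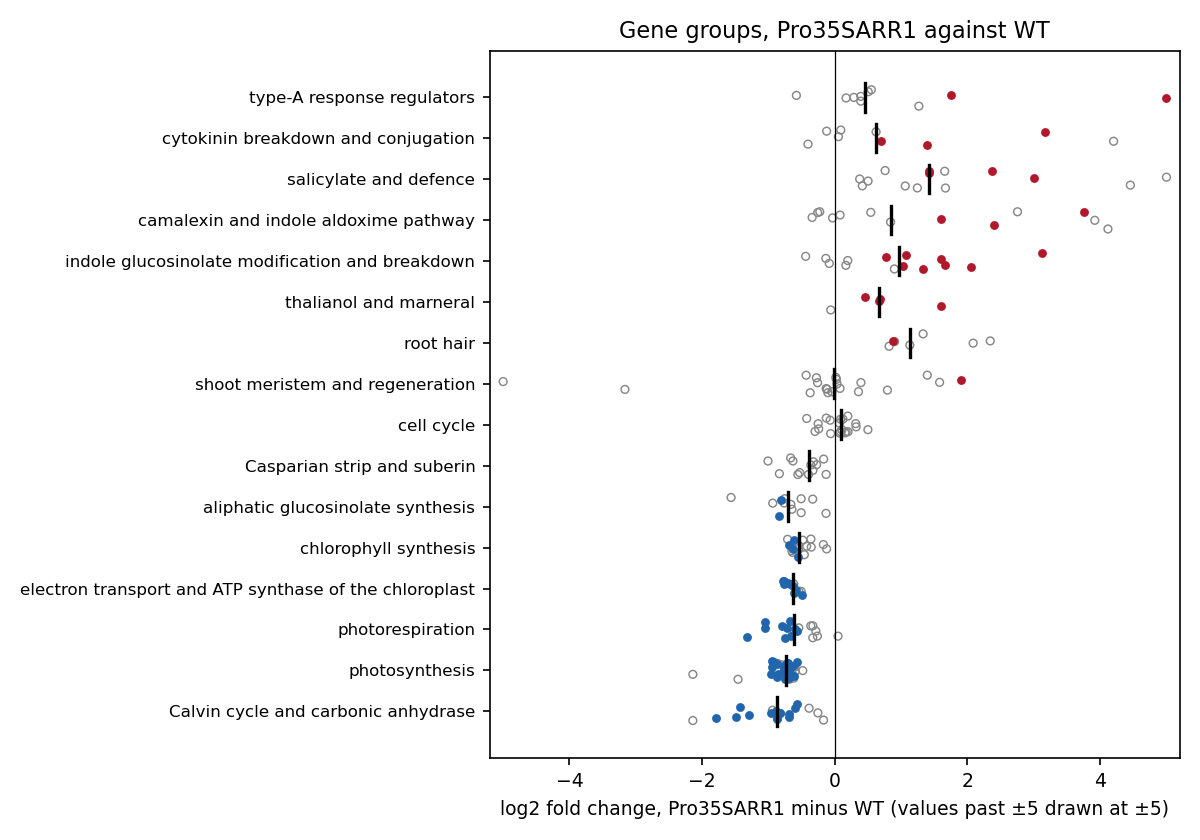
Log2 fold change in Pro35SARR1 against WT (horizontal axis) of the tested members of 16 gene groups, with red points called higher, blue points called lower, open circles not called and a black bar at each median; values past 5 are drawn at 5. The medians run from −0.87 for the Calvin cycle group to 1.42 for the salicylate group, and the cell cycle and shoot meristem groups lie around 0.

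The summed levels of tissue markers varied between the replicate numbers as well as between the genotypes. The 7 root hair genes had positive values throughout, a median of 1.13 and 1 call, against 1.18% of all genes called higher. The call was PRP3, a proline-rich wall protein of root hairs, at 14.4 and 52.3 CPM in WT and 26.2 and 97.1 CPM in Pro35SARR1 (log2 fold change 0.88, SE 0.122, adjusted p = 0.0364). Replicate 2 was the higher library in each genotype, so PRP3 overlapped between the genotypes and its call rests on the block. The summed level of the 7 genes was 33.4 and 106 FPKM in WT and 60.6 and 228 FPKM in Pro35SARR1. Of 13 tested Casparian strip and suberin genes, which mark the root endodermis, all had negative values, with a median of −0.40 and no call, and the sum over the list was 659 and 451 FPKM in WT and 511 and 323 FPKM in Pro35SARR1. The sums for 11 xylem and phloem genes were 824 and 768 FPKM in WT and 832 and 801 FPKM in Pro35SARR1, with SND1 at 0 in all libraries, and those for 12 genes of the shoot epidermis and cuticle were 1194 and 869.5 FPKM in WT and 1051 and 720.5 FPKM in Pro35SARR1. No xylem, phloem or epidermis gene was called. Apart from SND1, markers of root, vascular and shoot tissue were thus present in the explants, and the part of shifts in tissue makeup in the other results was not tested.

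Other called genes with large changes are given next. AT4G22050, an aspartyl protease gene, was at 1.80 and 1.69 CPM in WT and 46.3 and 45.7 CPM in Pro35SARR1 (log2 fold change 4.71, SE 0.177, adjusted p = 0.000944). AT2G39980, an acyltransferase gene, was at 3.95 and 2.58 CPM in WT and 73.8 and 100.1 CPM in Pro35SARR1 (log2 fold change 4.71, SE 0.276, adjusted p = 0.00751). SAG13, a senescence-associated gene, was at 2.71 and 0.450 CPM in WT and 52.1 and 23.9 CPM in Pro35SARR1 (log2 fold change 4.67, SE 0.307, adjusted p = 0.00785). All 3 stood under 5 CPM in WT. SAG13 and RNS1 were the 2 calls among 8 tested genes of senescence and cell death, against 1.18% of all genes called higher. Of these 8 genes 4 had a positive and 4 a negative log2 fold change, with a median of −0.03. The uncalled members ORE1, NAP, BFN1, SEN1, SGR1 and MC9 had log2 fold changes of 0.60, 0.11, −0.23, −0.57, −0.17 and −0.34. AT2G16005, a lipid-recognition protein gene, was at 9.81 and 7.64 CPM in WT and 145 and 275 CPM in Pro35SARR1 (log2 fold change 4.56, SE 0.444, adjusted p = 0.0259). Its 2 Pro35SARR1 libraries differed more than those of the protease gene, and both lay far above WT. BGLU31, a beta-glucosidase gene, was at 0.226 and 0.337 CPM in WT and 10.1 and 10.2 CPM in Pro35SARR1 (log2 fold change 5.12, SE 0.486, adjusted p = 0.0250). ENODL1, an early nodulin-like gene, was at 1.58 and 0.787 CPM in WT and 27.7 and 7.71 CPM in Pro35SARR1 (log2 fold change 3.78, SE 0.427, adjusted p = 0.0297). AT5G24200, a hydrolase gene, was at 0 and 0.787 CPM in WT and 15.4 and 20.9 CPM in Pro35SARR1 (adjusted p = 0.0297). The Pro35SARR1 libraries of these 3 genes all lay above WT, which the rule that named them required, and the spread was widest for ENODL1. For AT1G03320, an uncharacterized gene, 2 counts in WT stood against 157 in Pro35SARR1, a ratio of 78.6 with a 95% counting interval from 21.4 to 655. For the methyltransferase gene AT3G21950, 3 counts stood against 104, a ratio of 34.7 with an interval from 11.6 to 171. An unannotated locus on chromosome 5 (bases 20904646 to 20905489 in the deposited table) was measured at 0.451 and 0.337 CPM in WT and 7.63 and 4.58 CPM in Pro35SARR1 (adjusted p = 0.0308).

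Further low p-values among the higher genes came with tight replicates. AAT1, an amino acid transporter gene, was at 23.6 and 19.7 CPM in WT and 91.6 and 114 CPM in Pro35SARR1 (log2 fold change 2.25, SE 0.153, adjusted p = 0.00866). AGP24, an arabinogalactan protein gene, was at 28.2 and 24.4 CPM in WT and 141 and 114 CPM in Pro35SARR1 (log2 fold change 2.28, SE 0.147, adjusted p = 0.00751). PMAT2, a malonyltransferase gene, was at 55.6 and 54.1 CPM in WT and 143 and 139 CPM in Pro35SARR1 (log2 fold change 1.36, SE 0.0865, adjusted p = 0.00751). For each, the 2 libraries of a genotype lay closer to each other than to those of the other genotype.

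Among the lower genes outside the chloroplast pathways, ABCB2 (AT4G25960, chr4:13177409-13183631), a transporter gene of the P-glycoprotein family, had the largest fall of those with counts in all 4 libraries. ABCB2 was at 14.7 and 7.19 CPM in WT and 0.683 and 0.782 CPM in Pro35SARR1 (log2 fold change −3.83, SE 0.358, adjusted p = 0.0249). The Pro35SARR1 libraries were both under 1 CPM. Other lower genes named by rule changed less. BBX15, a B-box zinc finger gene, was at 28.4 and 27.9 CPM in WT and 13.9 and 11.1 CPM in Pro35SARR1 (log2 fold change −1.18, SE 0.146, adjusted p = 0.0319). AST56, a sulfate transporter gene, was at 11.6 and 23.3 CPM in WT and 5.80 and 9.50 CPM in Pro35SARR1 (log2 fold change −1.16, SE 0.191, adjusted p = 0.0496). AT3G22142, of the lipid-transfer protein class, was at 565 and 385 CPM in WT and 299.6 and 157 CPM in Pro35SARR1 (log2 fold change −1.11, SE 0.145, adjusted p = 0.0335). The remaining genes picked by the same rule, AT4G34560, AT4G00780, AT1G67860, AT3G44970, AT1G61740 and AT1G73600, had log2 fold changes from −1.27 to −0.80. The call of AST56 was the one kept least often among the named genes, in 6 of 16 alternatives.

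The libraries labelled arr1 are set against the same WT libraries in the study, so both comparisons share their controls and the levels are given with no test, for genes picked after their values were seen. CWINV1 was at 70.2 and 73.4 CPM in those libraries, CEL3 at 5.63 and 10.8 CPM, BAHD1 at 2.07 and 1.94 CPM and ACS2 at 2.07 and 2.28 CPM. For these 4 genes the arr1-labelled libraries lay below WT and the Pro35SARR1 libraries above it. ABCB2 was at 33.7 and 27.7 CPM there, above WT, whereas Pro35SARR1 lay below it. This opposite pattern was not general. Among the named lower genes, only ABCB2 and AGT had a mean in the arr1-labelled libraries above the WT mean. AGT was at 80.6 and 128.8 CPM there, a range that includes its WT levels. All other named lower genes had a mean below WT in the arr1-labelled libraries, as in Pro35SARR1. CA1 was at 11.1 and 24.4 CPM and IPT3 at 30.0 and 24.5 CPM in the arr1-labelled libraries, below WT as in Pro35SARR1. CYP71A12 was at 2.76 and 2.96 CPM and CBP60g at 40.6 and 58.0 CPM there, above WT as in Pro35SARR1. For the photosynthesis list both sets of libraries lay below WT: the summed level was 10728 and 11948 FPKM in the libraries labelled arr1. WUS was at 10.5 and 6.04 CPM there, within the WT range.

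The authors' deposited summary gives 129 and 6 genes for WT against Pro35SARR1 under headings for higher and lower, 135 in all, which is the size of their list in the deposited pathway sheet. Its column heading repeats the name of the arr1 comparison, so the direction of these 2 counts is taken from the headings alone. No cut-off of the authors was applied here. Their counts and the 214 higher and 161 lower calls above may therefore rest on unlike tests and thresholds.

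**Figure D5:**
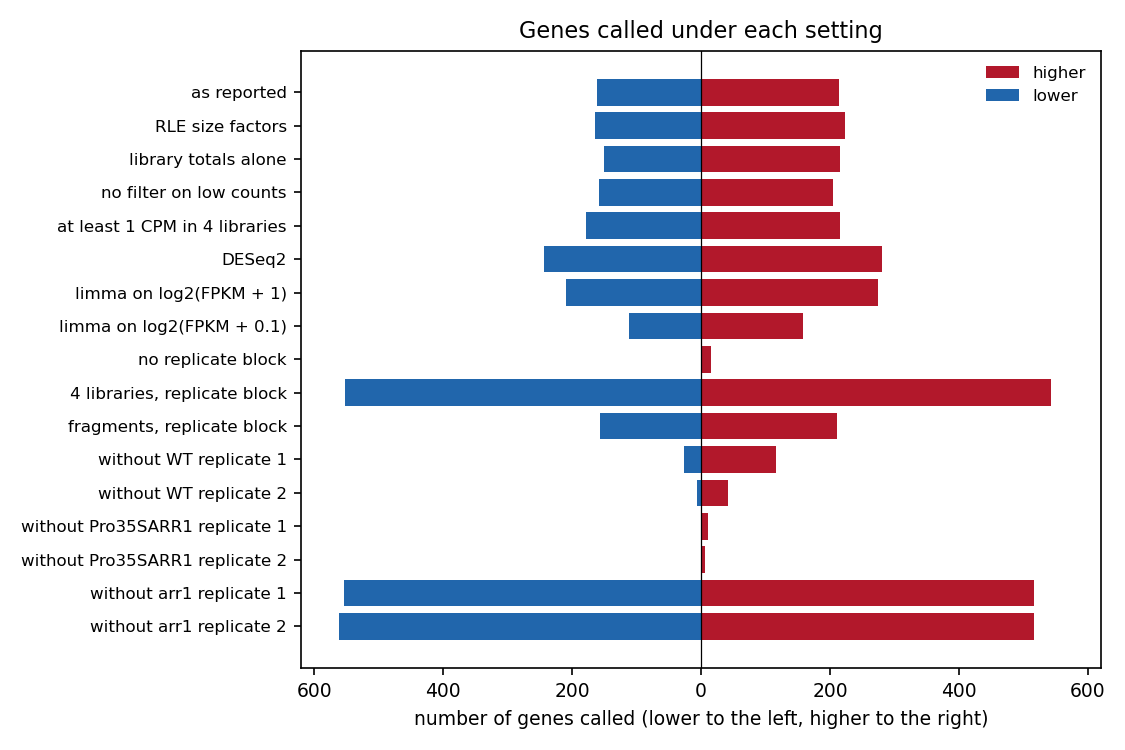
Number of genes called higher (red, to the right) and lower (blue, to the left) in Pro35SARR1 against WT as reported and under each of 16 alternative settings. The bars are near absent without the replicate block and without either Pro35SARR1 library, and longest, with 1070 to 1094 genes, when the arr1-labelled libraries or 1 of them are left out.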

How the data were processed

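Total RNA of root explants was sequenced in 6 libraries, grouped by the genotype and replicate number in the sample titles; the series text names AOE where the titles have Pro35SARR1, and the 2 names were taken as one. Per the file headers, the authors deposited estimated counts and FPKM values per isoform and library. CASAVA and DESeq are listed, with no role or version, per the submitters' processing notes. Not given in the sources used here are the aligner, the quantifier, the genome build and any use of strand; overlapping, antisense and near-identical genes may share reads. The deposited estimated counts total 8908816 to 9381532 in the WT and Pro35SARR1 libraries. At that depth 3 counts are 0.335 to 0.341 CPM, and intervals and floors cover counting error only. No sample column was left unused (0).

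Isoform values were added up to genes and rounded. After filterByExpr and TMM scaling, the quasi-likelihood F test of edgeR 4.0.16 (R 4.3.3) was run on genotype and replicate number over all 6 libraries, with 2 residual degrees of freedom and Benjamini-Hochberg adjustment over 18083 genes; calls are adjusted p under 0.05. SEs were derived from the log2 fold change and F. The block was used because the comparison was set with it, although no label gives a batch or day that same-numbered libraries share. The test was tried on simulated counts first. DESeq2 1.42.0 and limma 3.58.1 on log2(FPKM + 1) and log2(FPKM + 0.1) of the deposited FPKM values were alternatives, as were other scalings, filters and libraries left out.

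The comparison, the 33 gene lists (433 genes, of which 372 were tested) and the rule for named genes were chosen with earlier results of these data known, and 6 further lists and 5 families were added after all called genes had been read. Named by rule were ARR1, up to 4 called members of each list, the 15 higher and 15 lower called genes of largest change with libraries that did not overlap and with the higher genotype at 5 CPM or more, and 5 further genes in each direction by p, with uncalled response regulators, WUS, STM, IND and HEC genes. ARR16, ARR17, CKX4, WUS and RBCS1A for the sequences, called members of the added lists, other uncalled genes and ATMIN7 and SDG2 were named after their values were seen. Deposited coordinates were used; 97.4% of 25946 matched gene starts lie within 500 bp of RefSeq TAIR10.1, which supplied symbols and sequences.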

Additional observations from a re-analysis of the deposited data

How the results depend on the processing

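All 71 named genes other than ARR1 kept their direction in every alternative in which they were tested, and ARR1 was called in all 16. The named genes were chosen because they were called in the same libraries, so their direction could hardly reverse. The fit with no replicate block called 16 genes, 16 higher and 0 lower, against 375 with the block. Across 17752 genes, deviations from the genotype mean correlated between libraries of the same number with Pearson's r of 0.566 for WT and Pro35SARR1, 0.327 for WT and arr1 and 0.332 for arr1 and Pro35SARR1. With 2 numbers this is a hint from the data and not from the design. Calls lost without the block therefore rest on a pairing of libraries that no label gives. The fit to the 4 libraries alone called 1094 genes, 542 higher and 552 lower, with 1 residual degree of freedom. With 1 library left out the calls ran from 6 to 1078, higher ones from 6 to 516 and lower ones from 0 to 562; the lone library left in a genotype is then assumed to vary like the others. DESeq2 called 243 genes lower. The other scalings, filters, units and limma fits stayed within 1.5 times of the reported counts over all genes, but counts within lists moved more. On log2(FPKM + 0.1) limma called 14 photosynthesis genes lower against 23, 2 of chlorophyll synthesis against 4, 1 of aliphatic glucosinolate synthesis against 2, and 1 of cytokinin breakdown against 3, 1 of ethylene against 2, 2 of thalianol and marneral against 4 and 2 WRKY factors against 4 higher; among peroxidases it called 3 higher against 5 and 1 lower against 3. On log2(FPKM + 1) limma called 7 salicylate genes against 4 and 5 of the tryptophan-derived pathway against 3. DESeq2 called 8 genes of chlorophyll synthesis and 4 of aliphatic glucosinolate synthesis lower, and library totals alone gave 2 of chlorophyll synthesis. Type-A calls went from 2 to 1 with no filter, with at least 1 CPM in 4 libraries and with the count step, which also left 1 aliphatic glucosinolate gene; the senescence list went from 2 to 1 with at least 1 CPM in 4 libraries. In the 4 libraries alone 10 salicylate genes and 11 of chlorophyll synthesis were called. Estimated counts are whole multiples of a step in 90.0% to 90.9% of low values (within 0.02), and division by that step gave 367 calls. Taken over the 250 bases before the start alone, the share of all windows was 62.5% for AGATT, 25.4% for AGATC, 5.71% for AAGATTTT and 0.739% for AAGATCTT. The shares were 67.6% for AGATT and 28.1% for AGATC among higher genes and 64.0% and 14.9% among lower genes. These windows are shorter by construction. Depth limits the genes with few counts in WT, for which ratios have wide counting intervals.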

Other observations

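The called genes given here lie outside the rule for named genes and were picked after their values were seen, with adjusted p-values from the same edgeR test. Glutathione S-transferase genes of the tau class, whose products attach glutathione to reactive compounds, include GSTU10, GSTU11 and GSTU12, all called higher, of which the latter pair stand close together and may share reads. Over all glutathione S-transferases 5 of 35 tested genes were called higher, against 1.18% of all genes, and 14 of the 35 had a negative log2 fold change. GSTU10 was at 1.13 and 1.80 CPM in WT and 14.2 and 12.8 CPM in Pro35SARR1 (adjusted p = 0.0297) and GSTU11 at 3.16 and 0.787 CPM in WT and 21.5 and 18.5 CPM in Pro35SARR1 (adjusted p = 0.0364). GSTF2, of the phi class, was at 154 and 73.5 CPM in WT and 452 and 368 CPM in Pro35SARR1 (adjusted p = 0.0302). In each of them both Pro35SARR1 libraries lay above both WT libraries. LHT1, a carrier that takes up amino acids, was at 22.4 and 4.50 CPM in WT and 123 and 65.6 CPM in Pro35SARR1 (adjusted p = 0.0297), and GLN1.3, a cytosolic glutamine synthetase, at 149 and 96.4 CPM in WT and 284 and 245 CPM in Pro35SARR1 (adjusted p = 0.0293). Replicate 1 was the higher library of both genes in each genotype.

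Of the transcription factor genes called, WRKY38 was at 3.61 and 2.70 CPM in WT and 20.6 and 15.1 CPM in Pro35SARR1 (adjusted p = 0.0297) and WRKY51 at 6.54 and 3.15 CPM in WT and 33.1 and 26.6 CPM in Pro35SARR1 (adjusted p = 0.0388), both members of a family with many defence regulators. NAC042 was at 0.564 and 0.562 CPM in WT and 7.06 and 4.92 CPM in Pro35SARR1 (adjusted p = 0.0336). KDR, a small helix-loop-helix gene, was at 1.13 and 0.787 CPM in WT and 9.11 and 9.61 CPM in Pro35SARR1 (adjusted p = 0.0297). Levels in WT were under 7 CPM for all 4, and none overlapped between the genotypes. PNP-A, a small secreted peptide gene, was at 8.34 and 6.41 CPM in WT and 54.6 and 79.1 CPM in Pro35SARR1 (adjusted p = 0.0211), and the chitinase gene AT2G43610 was at 78.4 and 84.2 CPM in WT and 219.8 and 297 CPM in Pro35SARR1 (adjusted p = 0.0121). CAS1, which makes the sterol precursor cycloartenol, was at 139.8 and 119.9 CPM in WT and 247 and 232 CPM in Pro35SARR1 (adjusted p = 0.0237), a smaller change than that of PNP-A or the chitinase gene.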
